A study of Mus musculus with 2 samples.

Results

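The vascular endothelial growth factor (VEGF) ligands and receptors were followed as 8 genes among the 27998 genes listed in the count matrices. Vegfa, Vegfb, Vegfc and Pgf encode ligands, Kdr and Flt1 encode receptor tyrosine kinases, and Nrp1 and Nrp2 encode co-receptors. The genes were chosen by family and by their summed UMI counts per cell type and library, with the difference in Kdr among dendritic cells (DCs) already known from these data, so the levels are given as a description with no test. For each gene, unique molecular identifiers (UMIs, 1 for each captured mRNA molecule) were summed over the cells of each of the authors' 26 cell type names, separately in each library. All 8 genes had UMIs in both libraries, in named cells between 123 (Vegfc) and 4777 (Vegfa) in APOE4 and between 120 (Vegfc) and 6193 (Vegfa) in APOE2.

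The cells came from melanomas of human APOE4 knock-in mice and of human APOE2 knock-in mice, which carry a human APOE allele, the gene of a lipid carrier protein. Tumours of the mouse melanoma line YUMM1.7 were started with 100000 cells in Matrigel under the flank skin and taken on day 19. Living CD45+ leukocytes (CD45+ DAPI−) were sorted, 10000 from each of 6 mice per genotype, and the 6 sorts of a genotype were pooled into 1 droplet library that counts the 3′ ends of transcripts. The sources used here give no age, sex or strain background. Tumour cells and vessels, which also make or bind VEGF, were not the target of the sort. Some cells other than leukocytes were still present: each library held 85 cells named stromal cells, with Mgp and Col3a1 as leading genes. With 1 pooled library per genotype the spread between mice cannot be measured. Every interval below is therefore a 95% interval of counting error alone, and it is too narrow where a few cells hold many of a gene's UMIs.

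VEGF-A is the main growth signal of blood vessel endothelium, which it reaches through VEGFR-2, the product of Kdr. VEGFR-1, the product of Flt1, binds VEGF-A, VEGF-B and placental growth factor, the product of Pgf, and is known on monocytes and macrophages as well as on endothelium. Neuropilins, the products of Nrp1 and Nrp2, bind VEGF and class 3 semaphorins and act as co-receptors, while VEGF-C is best known for the growth of lymphatic vessels.

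The APOE4 library held 5689 barcodes and 37349222 UMIs, of which 5385 barcodes carried an authors' name, and the APOE2 library held 5063 barcodes and 41207514 UMIs, of which 4665 carried one. Median UMIs per named cell were 5560 in APOE4 and 7160 in APOE2. The libraries had 9 barcode sequences in common. Across all genes with at least 20 UMIs, the median APOE4/APOE2 log2 ratio of CPM (a gene's share of the UMIs of a cell type or class, scaled to 1000000) was 0.08 in DCs and −0.07 in monocytes and macrophages, so no class was shifted as a whole by more than 0.1. The DC names matched their markers. The 12 pDC (plasmacytoid DC) markers summed to 20040 CPM in APOE4 and 17980 CPM in APOE2 in the cells named pDCs, and to 1249 to 2757 CPM in APOE4 and 631 to 1974 CPM in APOE2 in the other DC names. The 8 migratory DC markers summed to 13340 CPM in APOE4 and 12680 CPM in APOE2 in the cells of that name. The 6 cDC2 (conventional DC type 2) markers used, however, summed to 1615 CPM in APOE4 and 3141 CPM in APOE2 in the cells named cDC 2, and the part of this difference in the results on that name was not tested.

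Each gene had its own distribution over the names. Vegfa was spread over monocytes, macrophages, MDSC (myeloid-derived suppressor cell) and NK names, and Vegfc UMIs lay mostly in NK and stromal cells. Pgf was centred on cDC 2 and macrophages, Kdr on pDCs, cDC 2 and Monocytes 2, and Flt1 on monocytes and stromal cells. Nrp1 was broad, and Nrp2 was highest in stromal cells, migratory DCs and the cells named Skin resident Mø.

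**Figure D1:**
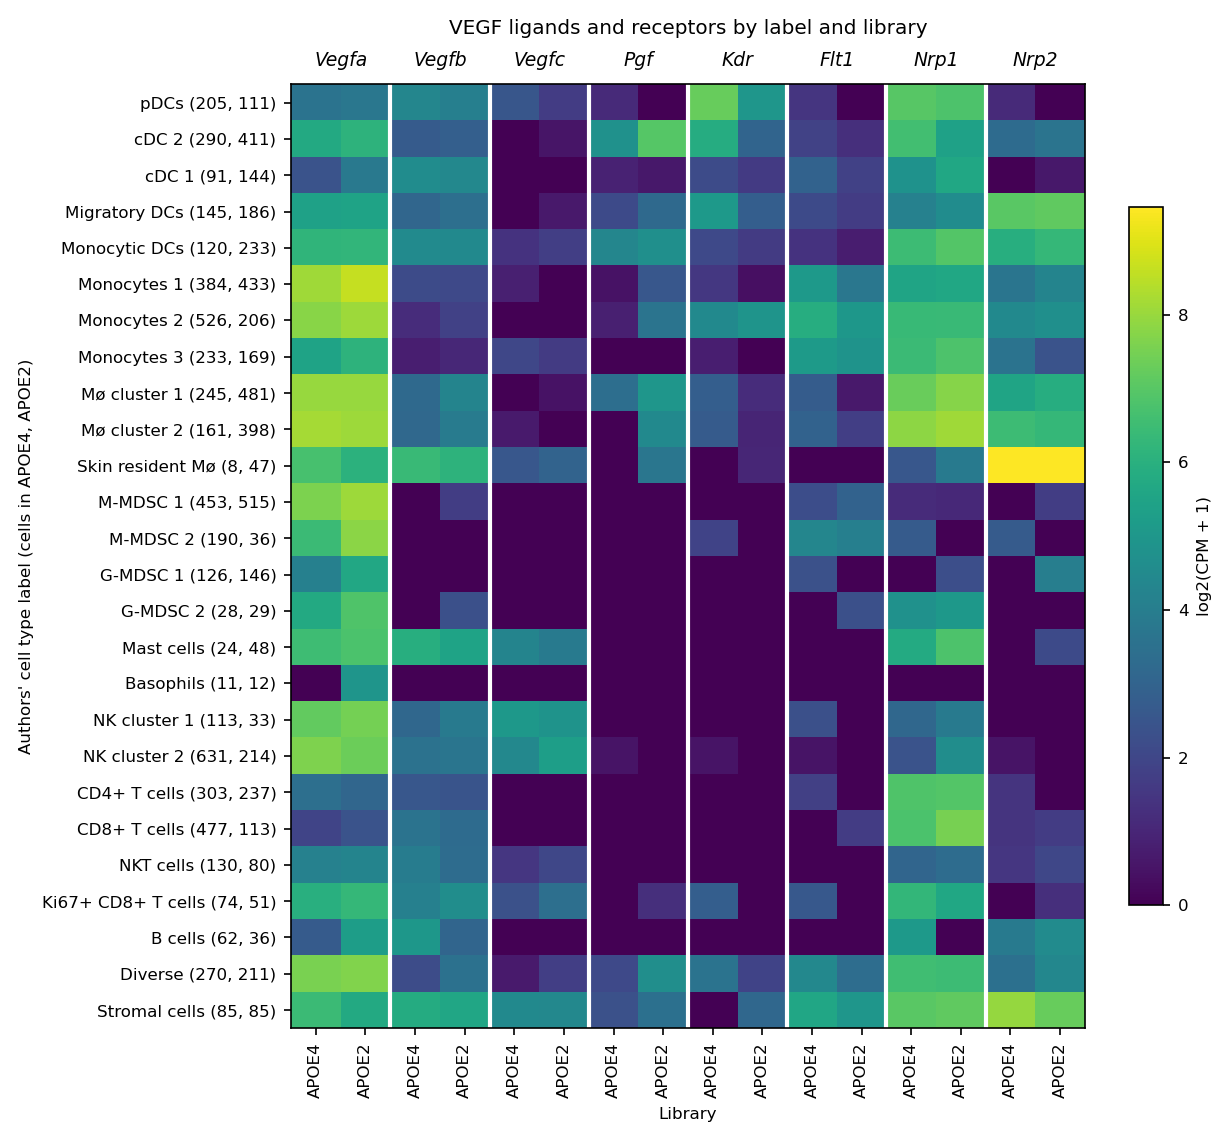
Level of each gene, as log2(CPM + 1) from 0 (dark) upward, in the authors' 26 cell type names (rows, with the number of cells in APOE4 and APOE2) and in the APOE4 and APOE2 libraries (left and right column of each gene). Kdr is brightest in APOE4 pDCs (153 CPM), Pgf in APOE2 cDC 2 (123 CPM) and Nrp2 in Skin resident Mø (701 CPM in APOE4 and 686 CPM in APOE2, from 8 and 47 cells).

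Kdr (ENSMUSG00000062960, mm10 chr5:75932827-75978458, minus strand) was higher in APOE4 than in APOE2 over all named cells and in most names with at least 20 Kdr UMIs. Over all named cells it had 646 UMIs (17.9 CPM) in APOE4 and 159 UMIs (4.08 CPM) in APOE2, a 4.39-fold difference (95% interval 3.69 to 5.26), where 4.51% of all genes with at least 20 UMIs were at least 2-fold higher in APOE4. In the DC class, which joins cDC 1, cDC 2, migratory DCs and pDCs, it had 478 UMIs (67.0 CPM) in APOE4 and 73 UMIs (8.16 CPM) in APOE2, or 8.22-fold more (6.41 to 10.7). The DCs held 74.0% of all Kdr UMIs of the APOE4 library and 45.9% of those of the APOE2 library, while giving 19.8% and 23.0% of all UMIs. Of the 7 genes of the family with at least 20 UMIs in the DC class, 1 (Kdr) was at least 2-fold higher and 1 (Pgf) at least 2-fold lower in APOE4. For comparison, 3.88% of all such genes were at least 2-fold higher in the DC class, and 3.04% were at least 2-fold lower.

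The pDCs, the DCs best known for type I interferon production, held more of the Kdr UMIs of APOE4 DCs than any other name. They held 260 of its 478 Kdr UMIs (54.4%, Clopper-Pearson interval 49.8 to 58.9%) from 28.0% of its DC cells, against 27 of 73 UMIs (37.0%, 25.97 to 49.1%) from 13.03% of the DC cells in APOE2. Among cells with under 5% mitochondrial UMIs, however, their share was 31.4% in APOE4 and 2.56% in APOE2. This limit kept 40 of 205 pDCs in APOE4 and 10 of 111 in APOE2, but 268 of 290 and 354 of 411 cDC 2 cells. By UMIs cDC 2 then led in APOE4, with 154 of 283, while the 40 pDCs left held 89. The cDC 2 cells, which present antigen to CD4+ T cells, held 36.4% of the DC class's Kdr UMIs in APOE4 and 42.5% in APOE2, migratory DCs 8.37% and 15.1%, and cDC 1 0.837% and 5.48%. Within pDCs, Kdr stood at 153 CPM in APOE4 (135 to 173) and 30.3 CPM in APOE2 (19.97 to 44.1), a 5.05-fold difference (3.39 to 7.81). Among pDC genes with at least 20 UMIs, 3.93% were at least 2-fold higher in APOE4.

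The higher Kdr level was not limited to pDCs. In cDC 2 it was 56.5 CPM (174 UMIs) in APOE4 and 7.17 CPM (31 UMIs) in APOE2, or 7.87-fold higher (5.35 to 11.9), where 4.65% of measured genes were at least 2-fold higher. In migratory DCs, which carry antigen to lymph nodes, it was 33.7 CPM (40 UMIs) in APOE4 and 6.16 CPM (11 UMIs) in APOE2, or 5.47-fold higher (2.76 to 11.8), where 2.58% were, and 1 APOE4 cell held 11 of those UMIs. In cDC 1, which cross-present antigen to CD8+ T cells, only 4 UMIs were found in APOE4 and 4 in APOE2, too few for a ratio to be read. Because pDCs made up a larger share of APOE4 DCs, the class was also rebuilt with fixed proportions. APOE4 Kdr levels put on the APOE2 make-up of the class gave a level 6.13-fold above the APOE2 value, whereas APOE2 levels put on the APOE4 make-up gave 11.7 CPM, a level 1.43-fold above it. With equal weight for each of the 4 names the difference was 5.40-fold.

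**Figure D2:**
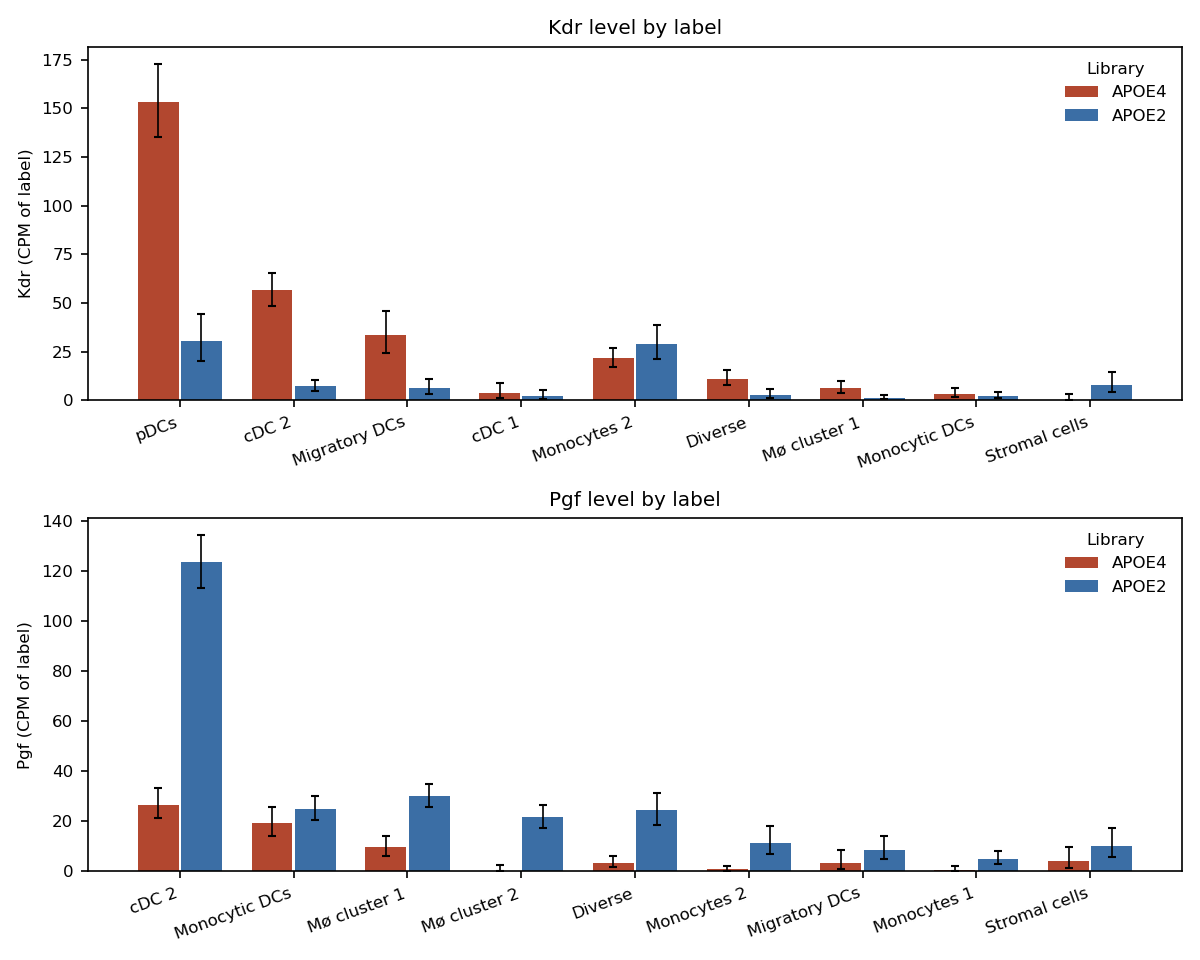
Kdr (upper panel) and Pgf (lower panel) in CPM of the name's total UMIs, for APOE4 (left bar of each pair) and APOE2 (right bar), with 95% Poisson intervals of the count as error bars. Kdr in pDCs was 153 CPM in APOE4 and 30.3 CPM in APOE2, and Pgf in cDC 2 was 26.6 CPM in APOE4 and 123 CPM in APOE2.

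Outside the DC class, Kdr was highest in Monocytes 2, where it was not higher in APOE4. That name had 21.6 CPM (84 UMIs) in APOE4 and 29.1 CPM (46 UMIs) in APOE2, a ratio of 0.744 whose interval includes 1 (0.513 to 1.09), and 1 APOE2 cell held 15 of the 46 UMIs. Kdr in Mø cluster 1 was 4.72-fold higher in APOE4 (16 and 7 UMIs, interval 1.84 to 13.6), and in the mixed name Diverse 4.04-fold higher (37 and 7 UMIs, 1.78 to 10.8), against 3.52% and 3.30% of measured genes that were at least 2-fold higher in those names. Thus 5 of the 6 names with at least 20 Kdr UMIs had an interval above 1, none had one below 1, and Monocytes 2 was the exception. In T cells, which join the CD4+, CD8+ and NKT names, no Kdr UMI was found in 910 APOE4 cells or in 430 APOE2 cells. A floor of 3 counts over these cells corresponds to a share of 0.330% of cells with a UMI in APOE4 and 0.698% in APOE2. The separate name Ki67+ CD8+ T cells had 6 Kdr UMIs in APOE4 and 0 in APOE2.

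Among APOE4 names with at least 50 cells the order of Kdr levels was pDCs, cDC 2, migratory DCs, Monocytes 2 and Diverse, and each of the first 4 exceeded the next beyond counting error. In APOE2 the first place was shared, since pDCs (30.3 CPM) and Monocytes 2 (29.1 CPM) did not differ beyond counting error. Stromal cells, cDC 2 and migratory DCs followed in APOE2 at 8.01, 7.17 and 6.16 CPM, and of these 3 no name differed from the next beyond counting error.

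Per cell, 98 of 205 APOE4 pDCs (47.8%, 40.8 to 54.9%) and 14 of 111 APOE2 pDCs (12.6%, 7.07 to 20.3%) had a Kdr UMI. At least 4 UMIs were counted in 19 of the APOE4 pDCs and in 2 of the APOE2 pDCs. In cDC 2 a Kdr UMI was found in 61 of 290 APOE4 cells (21.0%, 16.5 to 26.2%) and in 15 of 411 APOE2 cells (3.65%, 2.06 to 5.95%). Median depth was similar between the libraries in both names, at 7870 and 8046 UMIs per cell in pDCs and 10016 and 10372 in cDC 2. With each cell thinned to 1500 UMIs, the shares were 13.8% in APOE4 and 4.50% in APOE2 for pDCs, and 5.86% in APOE4 and 1.22% in APOE2 for cDC 2. Thinning was a single random draw that left few UMIs, so its ratios also carry the error of that draw. It gave lower ratios of 2.26-fold in pDCs (33 and 8 UMIs, interval 1.02 to 5.65) and 3.53-fold in cDC 2 (20 and 8 UMIs, 1.49 to 9.28). The DC class was also lower, at 4.33-fold (63 and 17 UMIs, 2.50 to 7.89), while migratory DCs, with 10 and 1 UMIs left, differed 12.98-fold (1.85 to 563). Restricting the cells to those with under 5% mitochondrial UMIs left 40 APOE4 and 10 APOE2 pDCs with 89 and 1 Kdr UMIs, a 16.1-fold difference (2.82 to 643).

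**Figure D3:**
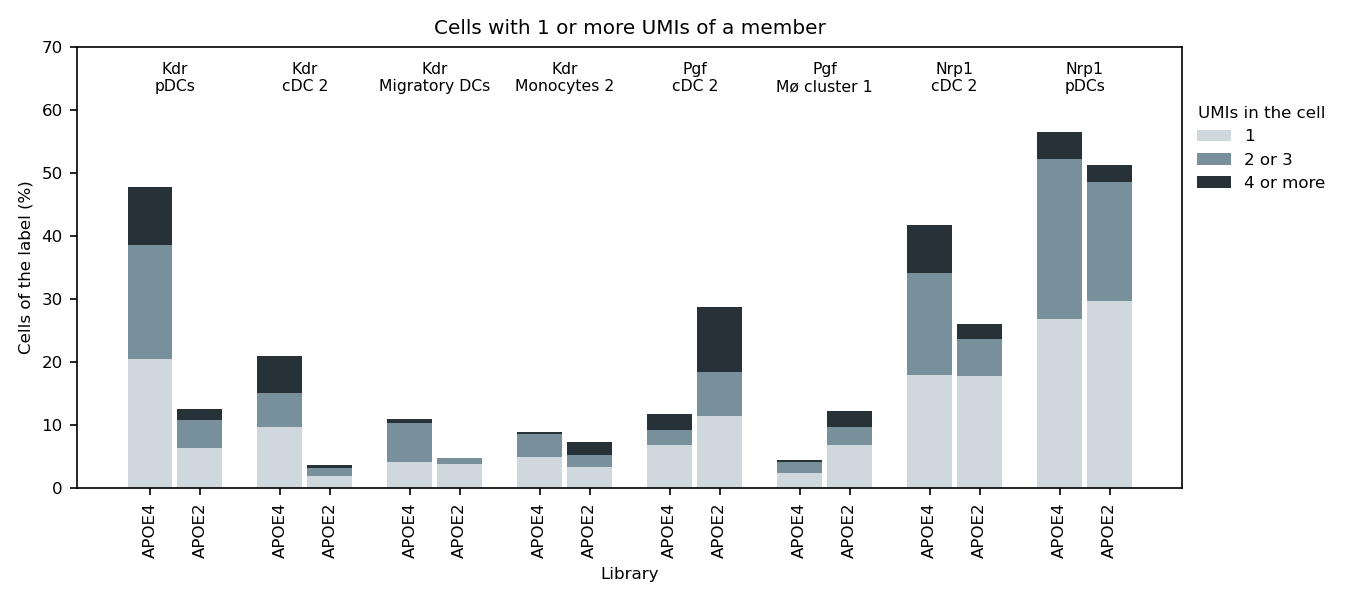
Share of cells (percent of the name's cells) with 1, 2 or 3, and 4 or more UMIs of a gene, stacked, for 8 pairs of gene and name, with APOE4 left of APOE2 in each pair. For Kdr the bars reach 47.8% in APOE4 pDCs and 12.6% in APOE2 pDCs, and for Pgf they reach 11.7% in APOE4 cDC 2 and 28.7% in APOE2 cDC 2.

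Since Kdr is a classical endothelial gene, endothelial markers were read beside it. The 14 endothelial markers summed to 329 CPM in APOE4 pDCs and 255 CPM in APOE2 pDCs, with 5 and 6 of them detected. Nearly all of this was Cdh5 (185 CPM in APOE4 and 146 CPM in APOE2), which encodes VE-cadherin, and Pecam1 (141 and 104 CPM), which many leukocytes carry. In cDC 2 the same markers summed to 30.2 CPM in APOE4 and 26.4 CPM in APOE2, and 10 of the 14 were at 0 in each library. The stromal cells differed from this. They had 0 Kdr UMIs in APOE4 and 11 in APOE2, and all 11 came from 2 cells in which all 14 endothelial markers were detected, at 5147 CPM in sum, against 133 CPM in the other 83 APOE2 stromal cells and 168 CPM in the 85 APOE4 stromal cells.

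Cells with a Kdr UMI had more transcripts of interferon-induced genes than other cells of the same name, a comparison added after the data were seen. Of the 24 genes chosen for it, 23 were found. In APOE4 cDC 2 these summed to 10600 CPM in the 61 cells with a Kdr UMI and 3528 CPM in the 229 cells without one, a ratio of 3.005. In APOE2 cDC 2 they summed to 11840 CPM in the 15 cells with a Kdr UMI and 1102 CPM in the 396 without one, a ratio of 10.7. So the few APOE2 cDC 2 cells with Kdr stood at about the level of the APOE4 ones. Isg15, which encodes an interferon-induced ubiquitin-like protein, was at 2409 CPM with and 651 CPM without a Kdr UMI in APOE4 cDC 2, and at 2632 and 196 CPM in APOE2 cDC 2. In pDCs the list stood at 4188 CPM with and 2521 CPM without a Kdr UMI in APOE4 (ratio 1.66), and at 1190 and 780 CPM in APOE2 (ratio 1.53). Markers of other cell types differed there too. NK markers stood at 60.9 and 27.8 CPM in APOE4 pDCs and at 187.5 and 15.6 CPM in APOE2 pDCs. Neutrophil markers stood at 8.15 and 909 CPM in APOE2 pDCs. The part of these in the result was not tested.

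In Monocytes 2, whose interferon-induced genes were high in all cells, the list stood at 14810 CPM with and 12020 CPM without a Kdr UMI in APOE4, and at 11950 and 8838 CPM in APOE2. Macrophage markers there stood at 5054 and 2316 CPM in APOE4 and at 10070 and 5508 CPM in APOE2. Shared DC markers (Flt3, Zbtb46, Itgax and H2-Ab1) stood at 7583 and 4702 CPM in APOE4 and at 10400 and 5732 CPM in APOE2. A list of Axl, Siglec1, Lyz2 and Klf4 was lower with a Kdr UMI, at 6836 and 13770 CPM in APOE4 and at 4675 and 12720 CPM in APOE2. Neutrophil markers stood at 2096 and 246 CPM in APOE4 but at 69.0 and 327 CPM in APOE2. Migratory DC markers stood at 285 and 211 CPM in APOE4 and at 1448 and 231 CPM in APOE2. The part of these in the result was not tested. In migratory DCs the interferon list stood at 5661 CPM with and 2505 CPM without a Kdr UMI in APOE4, and at 1778 and 1607 CPM in APOE2. In APOE4 migratory DCs the NK markers also differed, at 1040 CPM with and 85.8 CPM without a Kdr UMI. So did the migratory DC markers, at 8261 and 14000 CPM. In APOE2 migratory DCs the NK markers stood at 0 and 62.8 CPM and the migratory DC markers at 13170 and 12650 CPM. Shared DC markers of this name stood at 8906 and 3081 CPM in APOE4 and at 8290 and 2792 CPM in APOE2. Its cDC2 markers stood at 381 and 118 CPM in APOE4 and at 496 and 235 CPM in APOE2. The part of these marker differences in the result was not tested. Thinned to 1500 UMIs, the cDC 2 values were 10670 and 3636 CPM in APOE4 and 13730 and 1168 CPM in APOE2. The interferon list itself was higher in APOE4: in the DC class 22 of its 23 genes were at least 2-fold higher, against 3.88% of all measured genes. The 12 pDC markers summed to 2001 CPM in APOE4 cDC 2 with a Kdr UMI and 1051 CPM in those without one, and the NK markers to 408 and 150 CPM, while Siglech, a defining pDC gene, was at 7.79 and 2.87 CPM. In APOE2 cDC 2 the pDC markers stood at 1686 and 594 CPM, the NK markers at 6.85 and 49.35 CPM, and Siglech at 0 and 4.31 CPM. Of the pDC markers, Bst2 alone stood at 723 CPM over all APOE4 cDC 2 and at 284 CPM over all APOE2 cDC 2. Migratory DC markers of cDC 2 stood at 882 and 343 CPM in APOE4 and at 685 and 372 CPM in APOE2. Macrophage markers of cDC 2 stood at 489.3 and 407.5 CPM in APOE4 and at 1843 and 995 CPM in APOE2. The part of these in the Kdr result was not tested further, but without the cDC 2 cells that had 2 or more pDC markers (other than Bst2, Irf8 and Tcf4) Kdr was 9.11-fold higher in APOE4.

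**Figure D4:**
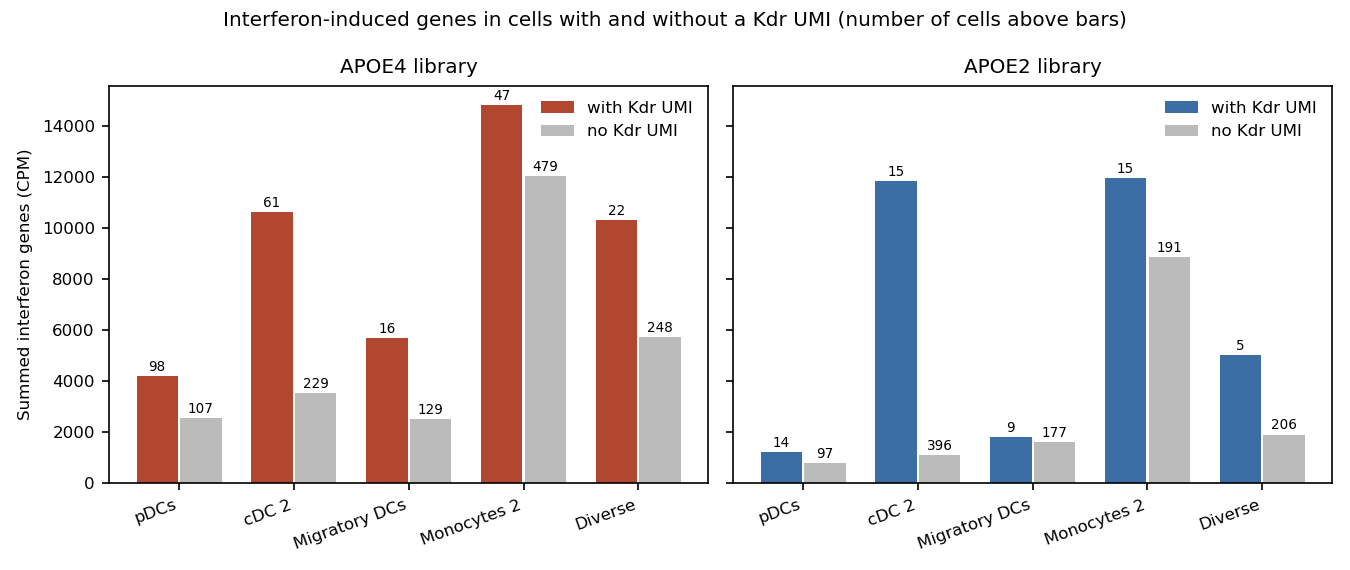
Summed CPM of 23 interferon-induced genes in cells with a Kdr UMI (left bar of each pair) and without one (right bar, grey), by name, in the APOE4 library (left panel) and the APOE2 library (right panel), with the number of cells above each bar. In cDC 2 the sums were 10600 and 3528 CPM in APOE4 and 11840 and 1102 CPM in APOE2.

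The stretch of 250 bases before the start of each gene was read from RefSeq (GRCm38.p6), where all 8 genes were found, at the first start listed. Those of 4 genes are shown because Kdr, Pgf and Flt1 differed most between the libraries and Vegfa is the family's main ligand. Capitals mark matches, on either strand, to 2 forms of the core that hypoxia-inducible factors bind (ACGTG and GCGTG) and to the interferon-stimulated response element core (GAAA, any 2 bases, GAAA).
Kdr, chr5:75978456-75978705, minus strand: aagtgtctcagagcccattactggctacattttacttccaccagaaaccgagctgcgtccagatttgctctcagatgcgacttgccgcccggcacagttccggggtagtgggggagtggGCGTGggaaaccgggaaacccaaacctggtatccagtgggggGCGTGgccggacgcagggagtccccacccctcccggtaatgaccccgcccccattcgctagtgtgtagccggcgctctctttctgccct
Pgf, chr12:85177314-85177563, minus strand: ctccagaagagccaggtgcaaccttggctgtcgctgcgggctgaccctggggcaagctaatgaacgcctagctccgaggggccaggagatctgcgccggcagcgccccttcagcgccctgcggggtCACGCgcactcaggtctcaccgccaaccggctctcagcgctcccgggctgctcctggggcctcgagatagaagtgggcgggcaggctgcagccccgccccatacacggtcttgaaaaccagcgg
Flt1, chr5:147726012-147726261, minus strand: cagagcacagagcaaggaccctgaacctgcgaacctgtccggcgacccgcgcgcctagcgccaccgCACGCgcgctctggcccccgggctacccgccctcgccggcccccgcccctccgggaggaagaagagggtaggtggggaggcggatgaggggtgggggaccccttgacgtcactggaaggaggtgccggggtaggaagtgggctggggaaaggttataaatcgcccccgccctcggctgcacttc
Vegfa, chr17:46032378-46032627, minus strand: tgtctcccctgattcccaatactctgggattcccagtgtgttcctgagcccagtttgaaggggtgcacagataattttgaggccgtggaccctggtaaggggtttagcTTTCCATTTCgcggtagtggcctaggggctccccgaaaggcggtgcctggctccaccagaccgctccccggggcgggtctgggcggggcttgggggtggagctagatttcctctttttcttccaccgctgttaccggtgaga
The Kdr window held 2 GCGTG matches, 131 and 89 bases before the start, and the Pgf and Flt1 windows held 1 each, 124 and 184 bases before it. GCGTG occurs in 28.2% of the 32851 promoter windows of this length and ACGTG, which none of the 4 windows held, in 16.6%. The interferon core was found in the Vegfa window alone among the 4, and occurs in 2.98% of all windows. The other listed Vegfa start, not shown, had 1 match each to ACGTG and GCGTG and none to the interferon core, and the other Pgf start had no match to any of the 3. The Pgf window shown lies inside the gene as GENCODE draws it, since the 2 sources place the start differently. These matches are letters in a short window and not binding sites.

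Flt1 (ENSMUSG00000029648, mm10 chr5:147561604-147726011, minus strand) was higher in APOE4 monocytes. In the monocyte/macrophage class it had 383 UMIs (31.3 CPM) in APOE4 and 126 UMIs (7.79 CPM) in APOE2, a 4.02-fold difference (3.27 to 4.95). Monocytes 2, the name with the highest level, counted 526 cells in APOE4 and 206 in APOE2, and with equal weight per name the class difference was 1.85-fold. Within Monocytes 2, Flt1 was 57.9 CPM in APOE4 and 31.0 CPM in APOE2 (1.87-fold, 1.37 to 2.604). Monocytes 1 had 33.0 CPM in APOE4 and 12.3 CPM in APOE2 (2.68-fold, 1.81 to 4.04, where 3.53% of measured genes were at least 2-fold higher), and Monocytes 3 had 34.4 CPM in APOE4 and 28.1 CPM in APOE2, which did not differ beyond counting error (0.740 to 2.06).

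Flt1 intervals lay above 1 in 5 of the 6 names with at least 20 UMIs, and none lay below 1. The others were Diverse (2.13-fold), Mø cluster 2 (2.87-fold, from 11 UMIs in APOE4 and 10 in APOE2, where 2.56% of measured genes were at least 2-fold higher) and stromal cells (1.56-fold, 47.7 CPM in APOE4 and 30.6 CPM in APOE2). Unlike Kdr, Flt1 was scarce in DCs, with 23 UMIs in APOE4 and 15 in APOE2 over the whole class. In the order of levels, Monocytes 2 and stromal cells led in both libraries and did not differ from each other beyond counting error.

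Nrp1 (ENSMUSG00000025810, mm10 chr8:128358604-128503363, plus strand), whose human protein is the pDC marker BDCA-4, was highest in Mø cluster 2 in both libraries, and in pDCs it did not differ between the genotypes beyond counting error. In pDCs it was 125 CPM in APOE4 and 111 CPM in APOE2, a ratio of 1.13 whose interval includes 1 (0.885 to 1.45). The cDC 2 cells were the exception among DCs, at 94.5 CPM (291 UMIs) in APOE4 and 41.4 CPM (179 UMIs) in APOE2, 2.28-fold higher (1.89 to 2.76). A Nrp1 UMI was found in 41.7% of APOE4 and 26.03% of APOE2 cDC 2 cells. After thinning to 1500 UMIs this ratio was 1.47 and its interval included 1 (28 and 27 UMIs, 0.833 to 2.58). The conventional cDC 1 went the other way, at 27.5 CPM in APOE4 and 48.7 CPM in APOE2 (ratio 0.565, 0.366 to 0.851).

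Nrp1 was lower in both APOE4 macrophage clusters and in the name CD8+ T cells, and higher in the name Ki67+ CD8+ T cells. Mø cluster 2 had 227 CPM in APOE4 and 277 CPM in APOE2 (ratio 0.821, 0.728 to 0.924), and Mø cluster 1 had 157 CPM in APOE4 and 213 CPM in APOE2 (0.739, 0.658 to 0.828). Over the monocyte/macrophage class the ratio was 0.646, and with equal weight per name it was 0.805. CD8+ T cells had 108 CPM in APOE4 and 180 CPM in APOE2 (0.601, 0.462 to 0.788). The cells named Ki67+ CD8+ T cells, after a protein of dividing cells, had 75.8 CPM (74 UMIs) in APOE4 and 48.1 CPM (34 UMIs) in APOE2, 1.58-fold higher (1.04 to 2.44). The CD4+ T cells, among which thymus-derived regulatory T cells carry the protein in mice, had 116 CPM in APOE4 and 120 CPM in APOE2 and an interval that included 1 (0.742 to 1.25). Of 17 names with at least 20 UMIs, 2 had an interval above 1, 6 had one below 1 and 9 included 1.

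Cells of cDC 2 with a Kdr UMI also held more Nrp1. In APOE4, 35 of the 61 cells with Kdr (57.4%) had a Nrp1 UMI, against 37.6% of the rest, and in APOE2, 9 of 15 (60.0%) against 24.7%. The Nrp1 level was 150 CPM in APOE4 cDC 2 with Kdr and 80.0 CPM in those without, and 192 and 36.2 CPM in APOE2. In pDCs the shares were 61.2% of cells with Kdr and 52.3% of the rest in APOE4, and 71.4% and 48.5% in APOE2. The Nrp1 level of pDCs did not follow these shares in both libraries. It was 136.7 CPM with and 113.5 CPM without Kdr in APOE4, but 97.8 and 113.3 CPM in APOE2.

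Nrp2 (ENSMUSG00000025969, mm10 chr1:62703285-62818695, plus strand), the co-receptor of VEGF-C and semaphorin 3F, had an interval that included 1 in 6 of 10 names with at least 20 UMIs, above 1 in 1 and below 1 in 3. Migratory DCs had 131 CPM in APOE4 and 139 CPM in APOE2 (ratio 0.941, 0.765 to 1.15), and Mø cluster 2 had 87.7 and 77.2 CPM (1.14, 0.926 to 1.39). Stromal cells were 1.63-fold higher in APOE4, at 247 CPM against 151 CPM in APOE2 (1.36 to 1.96), and Diverse cells were lower, with 34 UMIs against 51 UMIs in APOE2 (ratio 0.510, 0.320 to 0.802). The monocyte/macrophage class as a whole was lower in APOE4 (529 UMIs and 43.2 CPM, against 1425 UMIs and 88.1 CPM in APOE2, ratio 0.490), but with equal weight per name the ratio was 1.01. The class includes Skin resident Mø, the name with the highest Nrp2 level, at 701 CPM from 8 APOE4 cells and 686 CPM from 47 APOE2 cells. That name's 5 leading genes against all other cells were Ctsk, Acp5, Atp6v0d2, Slc9b2 and Mmp9, which encode cathepsin K, an acid phosphatase, a proton pump subunit, a sodium/proton exchanger and a matrix protease.

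**Figure D5:**
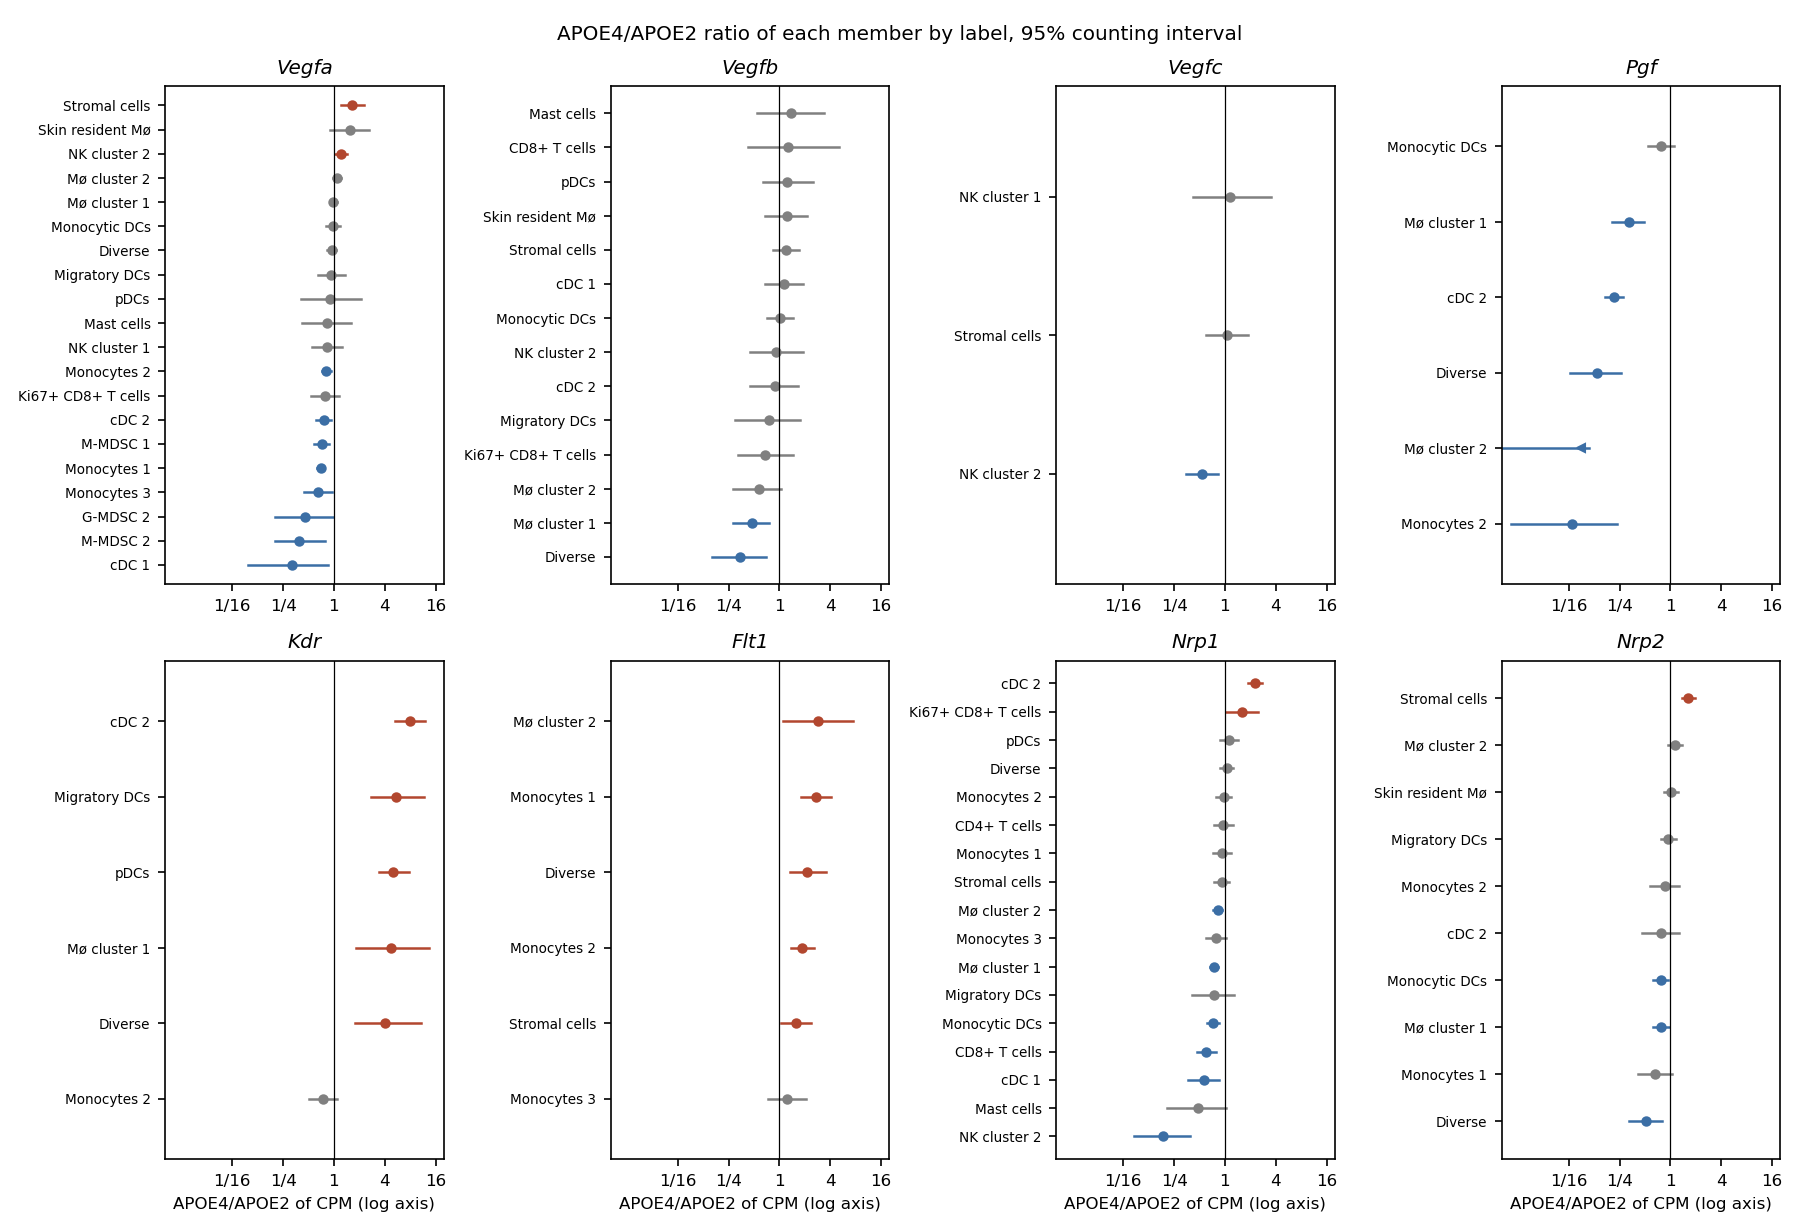
APOE4/APOE2 ratio of CPM (log axis) for each gene in every name with at least 20 UMIs over both libraries, with 95% counting intervals as lines. Red intervals lie above 1, blue below 1 and grey include 1, a triangle marks an upper bound against a floor of 3 counts, and an interval that meets the left edge continues beyond it. Kdr has 5 of 6 names above 1 and Pgf has 5 of 6 names below 1.

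Among the ligands, Pgf (ENSMUSG00000004791, mm10 chr12:85166635-85177790, minus strand) differed most, and it was lower in APOE4. It had 182 UMIs (5.05 CPM) in APOE4 and 1029 UMIs (26.4 CPM) in APOE2 over all named cells, 5.23-fold lower (4.46 to 6.16), where 4.03% of all measured genes were at least 2-fold lower. The cDC 2 cells held 45.1% of these UMIs in APOE4 and 51.8% in APOE2, at 26.6 CPM (82 UMIs) in APOE4 and 123 CPM (533 UMIs) in APOE2. The ratio in cDC 2 was 0.216 (0.169 to 0.273), where 3.20% of measured genes were at least 2-fold lower in APOE4. Per cell, 34 of 290 APOE4 cDC 2 (11.7%) and 118 of 411 APOE2 cDC 2 (28.7%) had a Pgf UMI, and 7 and 42 of them had 4 or more. After thinning these shares were 3.45% in APOE4 and 10.2% in APOE2.

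The same direction was seen for Pgf in macrophages. Mø cluster 1 had 9.59 CPM (25 UMIs) in APOE4 and 29.9 CPM (161 UMIs) in APOE2, a ratio of 0.321 (0.201 to 0.491). Mø cluster 2 had no Pgf UMI in 161 APOE4 cells and 90 UMIs in 398 APOE2 cells. With a floor of 3 counts for that name and library, Pgf was 11.5-fold lower in APOE4. The counting interval of the observed counts allowed a difference as small as 9.16-fold. In those names 3.85% and 3.04% of measured genes were at least 2-fold lower. A single APOE2 cell of Mø cluster 2 held 20 of the 90 UMIs. The cells named Monocytic DCs, which had both macrophage and shared DC markers, were the exception, with 19.3 CPM (47 UMIs) in APOE4 and 24.96 CPM (107 UMIs) in APOE2 and an interval that included 1 (0.536 to 1.10). In total 5 of 6 names with at least 20 Pgf UMIs had an interval below 1 and none had one above it. Within cDC 2 of the APOE4 library Pgf was at 7.79 CPM in cells with a Kdr UMI and 31.6 CPM in those without, whereas in APOE2 it was at 212 and 120 CPM.

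Vegfa (ENSMUSG00000023951, mm10 chr17:46016993-46032369, minus strand) was lower in the APOE4 monocyte/macrophage and MDSC classes by less than 2-fold. The monocyte/macrophage class held 58.0% of its UMIs in APOE4 and 68.9% in APOE2, at 226 CPM (2771 UMIs) in APOE4 and 264 CPM (4267 UMIs) in APOE2 (ratio 0.858, 0.817 to 0.900). Monocytes 1 had 276 CPM in APOE4 and 395 CPM in APOE2 (0.698, 0.636 to 0.766). Mø cluster 1 (253 and 256 CPM) and Mø cluster 2 (289 and 265 CPM) did not differ beyond counting error. In the MDSC class, in which neutrophil markers led among the lists, Vegfa was 125 CPM in APOE4 and 201 CPM in APOE2 (0.622, 0.517 to 0.747), and M-MDSC 1 alone had 193 and 269 CPM (0.718). In 2 smaller names of that class it was more than 2-fold lower. The ratio was 0.384 in M-MDSC 2 (31 UMIs in APOE4 and 14 in APOE2, 0.198 to 0.781), where 6.08% of measured genes were at least 2-fold lower, and 0.457 in G-MDSC 2 (10 and 29 UMIs, 0.199 to 0.964), where 7.24% were.

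Other names went the other way for Vegfa. NK cluster 2 had 195 CPM (492 UMIs) in APOE4 and 161 CPM (178 UMIs) in APOE2, 1.21-fold higher (1.02 to 1.45), and stromal cells had 86.3 CPM in APOE4 and 52.4 CPM in APOE2, 1.65-fold higher (1.21 to 2.25). Of 20 names with at least 20 UMIs, 2 had an interval above 1, 8 had one below 1 and 10 included 1. The highest level in APOE2, Monocytes 1, exceeded the next name (M-MDSC 1) beyond counting error, while in APOE4 Mø cluster 2, Monocytes 1 and Mø cluster 1 led, and neither of the first 2 differed from the next. In the DC class Vegfa had 233 UMIs (32.7 CPM) in APOE4 and 413 UMIs (46.2 CPM) in APOE2, a ratio of 0.708 (0.600 to 0.833). Most of it was in cDC 2, at 51.9 CPM (160 UMIs) in APOE4 and 68.7 CPM (297 UMIs) in APOE2 (0.756, 0.620 to 0.919). The pDCs had 11.2 CPM (19 UMIs) in APOE4 and 12.3 CPM (11 UMIs) in APOE2, and cDC 1 had 4.30 CPM (5 UMIs) in APOE4 and 13.3 CPM (26 UMIs) in APOE2 (0.322, 0.0966 to 0.853, where 3.55% of measured genes were at least 2-fold lower).

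Vegfb (ENSMUSG00000024962, mm10 chr19:6982473-6987651, minus strand), which signals through VEGFR-1, had its highest level among names with at least 50 cells in stromal cells, at 55.9 CPM in APOE4 and 47.3 CPM in APOE2. It was lower in APOE4 in Mø cluster 1 (8.44 CPM against 18.0 CPM in APOE2, ratio 0.468, 0.281 to 0.750) and in Diverse (0.340, 0.157 to 0.694, where 3.51% of measured genes were at least 2-fold lower), and in the other 12 names with at least 20 UMIs the interval included 1. The monocyte/macrophage class had a ratio of 0.367 (67 UMIs in APOE4 and 241 in APOE2), which became 0.984 with equal weight per name. Vegfc (ENSMUSG00000031520, mm10 chr8:54077606-54187096, plus strand) was found mainly in the NK class, with 67 UMIs (22.1 CPM) in APOE4 and 48 UMIs (36.3 CPM) in APOE2, and in stromal cells, with 26 UMIs in APOE4 and 28 in APOE2. NK cluster 2 was lower in APOE4, at 20.2 CPM against 38.03 CPM in APOE2 (0.532, 0.347 to 0.820).

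In the monocyte/macrophage class 7 of the 8 genes had at least 20 UMIs. Of these, Kdr (115 and 59 UMIs, 2.57-fold) and Flt1 were at least 2-fold higher in APOE4, and Pgf, Vegfb and Nrp2 were at least 2-fold lower. Monocytes 2, with 526 APOE4 and 206 APOE2 cells, held 84 of these 115 and 46 of these 59 Kdr UMIs, and its own Kdr ratio was 0.744. Of all genes measured there, 3.74% were at least 2-fold higher and 6.56% at least 2-fold lower.

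Other genes of the VEGF pathway gave no direction common to DCs and to monocytes and macrophages. A list of 26 genes held semaphorins, plexins, VEGFR-2 adaptors and VE-cadherin, and 14 of them were measured in DCs. Of these 14, 10 had a ratio above 1 and 4 below 1, with a median log2 ratio of 0.19 against 0.08 for all genes. There, 2 were at least 2-fold higher in APOE4, against 3.88% of all measured genes. These were Sh2d2a (172 UMIs in APOE4 and 68 in APOE2, 3.17-fold), which encodes the adaptor TSAd, and Cdh5 (315 and 131 UMIs, 3.02-fold), which within DCs was almost wholly a pDC gene (314 and 130 of these UMIs). Within pDCs Cdh5 was 1.27-fold higher in APOE4 (1.03 to 1.57), and 0 of 11 measured pathway genes were at least 2-fold higher there, against 3.93% of all measured genes. Over the whole DC class Plxna1, a semaphorin receptor, was lower (30 and 77 UMIs, ratio 0.489), where 3.04% of all measured genes were at least 2-fold lower. In monocytes and macrophages 0 of 15 measured genes were at least 2-fold higher, against 3.74% of all measured genes. Plxna4 was the 1 at least 2-fold lower (11 UMIs in APOE4 and 123 in APOE2, ratio 0.118), against 6.56% of all measured genes. Of the 15, 6 had a ratio above 1 and 9 below 1, with a median log2 ratio of −0.25 against −0.07 for all genes.

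Genes of the HIF oxygen response, to which Vegfa belongs, were mostly lower in APOE4 over all named cells. This held in the DC, monocyte/macrophage, MDSC, T and NK classes, and not in every name. Of 22 such genes (Vegfa not among them), 20 were measured in DCs. Of these, 18 had a ratio below 1, with a median log2 ratio of −0.39, against 0.08 for all genes. In monocytes and macrophages 18 of 22 were below 1 (median −0.39, against −0.07 for all genes), and in MDSCs 17 of 19 (median −0.61, against 0.00). In T cells 16 of 20 were below 1 (median −0.515, against −0.01), and in NK cells 13 of 19 (median −0.24, against 0.08). Over all named cells it was 20 of 22 (median −0.44, against 0.02). Stromal cells went the other way, with 16 of 22 above 1 (median 0.23), as did Skin resident Mø with 11 of 15, while pDCs had 8 above and 9 below 1 and NK cluster 2 had 9 and 9. Few passed 2-fold in the DC, monocyte/macrophage and MDSC classes. In DCs 3 were at least 2-fold lower (Hilpda, Egln3 and Bnip3), where 3.04% of all genes were. In monocytes and macrophages 1 was (Hilpda), where 6.56% of all genes were. In MDSCs 3 were (Hilpda, Egln3 and Higd1a), where 4.49% of all genes were. Hilpda, which encodes a lipid droplet protein, was the gene past 2-fold in all 3 classes, at 64.5 CPM in APOE4 and 210 CPM in APOE2 in DCs (ratio 0.308) and at 103 and 298 CPM in monocytes and macrophages (0.345). Hif1a itself was 1.203-fold higher in APOE4 monocytes and macrophages.

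The last list, of 20 other angiogenic and anti-angiogenic genes of myeloid cells, was lower as well in the DC and monocyte/macrophage classes. Both macrophage clusters, taken alone, differed little. In Mø cluster 1 the median log2 ratio was −0.09 (5 of 12 above 1), and in Mø cluster 2 −0.07 (6 of 12). In DCs 4 of 11 measured genes were at least 2-fold lower in APOE4, against 3.04% of all measured genes, and 0 were higher, against 3.88%. The median log2 ratio was −0.73, against 0.08 for all genes. The 4 lower genes were the neutrophil-attracting chemokine gene Cxcl2 (ratio 0.171), the proteases Mmp12 (0.193) and Mmp9 (0.448), and Thbs1 (0.468), the gene of the vessel inhibitor thrombospondin 1. In monocytes and macrophages 3 of 13 were at least 2-fold lower, against 6.56% of all measured genes. These were Mmp9 (97.6 CPM in APOE4 and 458 CPM in APOE2, ratio 0.213), Mmp12 (0.321) and Angpt2 (4 and 35 UMIs, 0.151), which encodes an antagonist ligand of the endothelial receptor TIE2. Most of the Mmp9 UMIs of that class lay in 8 APOE4 and 47 APOE2 cells named Skin resident Mø (1099 of 1195 in APOE4 and 7195 of 7401 in APOE2), where the level was 5462 CPM in APOE4 and 7198 CPM in APOE2.

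Over the 41 profiles of a name and library with at least 50 cells, the genes whose log2(CPM + 1) followed Kdr most closely among 11757 genes were St8sia1 (Pearson r 0.793), Gria3 (0.763), Stra6l (0.762), Kynu (0.749) and Kmo (0.740). They encode a ganglioside synthase, a glutamate receptor subunit, a retinol transporter and, for both of the last, kynurenine pathway enzymes. For Flt1 they were Plcb1 (0.786), Ifitm3, Laptm4a, Ace and Rhou, for Vegfa Fcgr3 (0.798), Camk1, March8, Itga5 and Rhob, for Nrp1 Tspan31 (0.855), Emp3, Cln6, 0610012G03Rik and Myeov2, and for Nrp2 Igfbp4 (0.856), Phldb1, 9530068E07Rik, Fmn1 and Dock1. Profiles of 1 library share its cells' preparation and depth, so these values describe the 2 libraries.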

How the data were processed

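Droplet 3′ single-cell libraries (10x Genomics v3 chemistry, NextSeq) of 1 APOE4 and 1 APOE2 pool were analysed. The authors deposited whole-number UMI counts of every gene and barcode, unscaled, made with Cell Ranger 3.0.1 per the file headers and on mm10 per the submitters' processing notes. The authors' deposited table, from Seurat 3.0.2 per those notes, names each cell's type and gives its percent of mitochondrial UMIs. How cells were named, any doublet removal and any use of strand in counting are not stated in the sources at hand, and the names were used as given.

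Counts were summed per name or class and library, scaled to CPM, and given with exact Poisson (levels), Clopper-Pearson (shares) and conditional binomial (ratios) 95% intervals (scipy 1.17.1). These cover counting error only. A ratio was read for genes with at least 20 UMIs, a gene at 0 was set to a floor of 3 counts, and names with at least 50 cells were ordered. With 1 library per genotype no test was run. Positions come from GENCODE M21 on mm10. The interval code recovered its coverage on simulated Poisson counts, the case for which the intervals are built. That check cannot show the coverage where a few cells hold many UMIs.

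The alternatives were UMIs per cell, median-ratio scaling, cells under 5% mitochondrial UMIs, leaving out the 5% of cells with the highest Scrublet scores (scanpy 1.11.5), thinning to 1500 UMIs, and equal weight per name. The genes named were the 8 members, genes of the 3 lists, and the 5 most like genes. Members, lists and markers were chosen with earlier results of these data known.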

Additional observations from a re-analysis of the deposited data

Results flagged for a closer look

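For 3 genes the interval lay above 1 in one cell type name and below 1 in another; the difference between names was not tested. Vegfa was 1.65-fold higher in APOE4 stromal cells, but its APOE4/APOE2 ratio in cDC 1 was 0.322 (5 UMIs in APOE4 and 26 in APOE2). Nrp1 was 2.28-fold higher in APOE4 cDC 2, but had a ratio of 0.185 in NK cluster 2 (11 UMIs in APOE4 and 26 in APOE2). Nrp2 was 1.63-fold higher in APOE4 stromal cells, but had a ratio of 0.510 in Diverse.

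The genes also had UMIs in the barcodes that carry no cell type name, 304 in APOE4 and 398 in APOE2. There Vegfa had 139 UMIs in APOE4 and 173 in APOE2, Vegfb 57 and 96, Vegfc 8 and 16, Kdr 6 and 8, Flt1 67 and 33, Nrp1 125 and 370, and Nrp2 194 and 551. Pgf had 0 in APOE4 and 15 in APOE2. These barcodes entered no comparison.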

How the results depend on the processing

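No paired analysis was possible because each genotype is 1 pooled library. Under 62 of the 96 alternative values computed, the result moved by less than its counting interval (counts of genes: by less than 1.5 times), and 1 ratio reversed. The cause of the moves was not tested. Nrp2 in monocytes and macrophages reversed to 1.01 with equal weight per name, and was 0.413 as UMIs per cell and 0.723 under 5% mitochondrial UMIs. Kdr remained higher in APOE4 under every alternative run in the DC class, pDCs, cDC 2 and migratory DCs. In the DC class it was 4.33-fold higher after thinning and 5.40-fold with equal weight. In pDCs it was 2.26-fold higher after thinning and 16.1-fold under 5% mitochondrial UMIs, where 10 APOE2 pDCs remained. The equal-weight value was 3.12 after thinning and 11.2 under 5% mitochondrial UMIs, and the pDC share of the DC Kdr UMIs was then 31.4% in APOE4 and 2.56% in APOE2. Ratios chosen after the data were seen also moved on thinning: Kdr to 3.53 in cDC 2 and 12.98 in migratory DCs, Nrp1 to 1.47 in cDC 2, and Pgf to 0.0658 in monocytes and macrophages. In that class Vegfa was 0.723 as UMIs per cell, 0.741 under 5% mitochondrial UMIs and 0.738 after thinning, Nrp1 was 0.545, 0.820 and 0.578 in the same order and 0.805 with equal weight, Flt1 was 1.85 and Vegfb 0.984 with equal weight. Genes at least 2-fold apart numbered 766 in DCs (2997 with at least 1 UMI, 345 with at least 100 UMIs), 1185 in monocytes and macrophages (3499 and 643), 626 in MDSCs (3455 and 195), 522 in T cells (2846 and 142) and 429 in NK cells (2398 and 64).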

Other observations

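Pairs of the genes were also counted in the same cells. Pgf and Nrp1 were found together in 15 APOE4 cDC 2 cells (the product of the shares gives 14.2) and in 21 APOE2 cDC 2 cells (30.7). Kdr and Flt1 were found together in 2 APOE4 cDC 2 cells (1.26) and in none of the 411 APOE2 cDC 2 cells (0.073), so at about the number the shares give.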
